A study of Homo sapiens with 8 samples.

Results

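The genes described here were 10 cytokines, chemokines and feedback inhibitors controlled by NF-κB, namely TNF, IL6, IL1A, IL1B, CXCL8, CXCL1, CXCL2, CCL20, TNFAIP3 and NFKBIA. They were chosen by name, with earlier results of these data known. All 10 were present in both expression tables, out of 34164 genes listed in either table. Expression was measured by RNA-seq in Kyse510 cells, an esophageal squamous cell carcinoma (ESCC) line, in 8 libraries with 1 library for each condition. For pharmacological inhibition, cells were given SP2509, which inhibits the histone demethylase LSD1, UNC0642, which inhibits the histone methyltransferase G9a, or both, for 2 days. The control was vehicle (labelled DMSO-con), for which no duration was listed. Each compound given alone was at 7 µM. The doses within the combination were not stated separately. For genetic silencing, Kyse510 cells carrying a doxycycline-inducible shRNA against LSD1 (shLSD1) or G9a (shG9a) were selected for 14 days with puromycin and were sequenced without doxycycline (Dox) or after 2 days with it. Each treated library was compared with its own control, which was the vehicle library for the inhibitors and the same uninduced line for each shRNA. A Dox-treated line with a nonsilencing shRNA was not analysed here, so the hairpins and Dox itself cannot be told apart. Each shRNA line was 1 line with 1 hairpin, and whether it was a single clone was not given.

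NF-κB is a family of transcription factor dimers held in the cytoplasm by IκB proteins until a signal from a cytokine or pattern receptor activates the IκB kinases and frees the dimer to enter the nucleus. Among its targets are cytokines that start the signal again in the same or neighbouring cells (TNF and the interleukins), chemokines that draw neutrophils and lymphocytes into tissue, and inhibitors that end the signal (NFKBIA, TNFAIP3). Squamous epithelial cells make many of these factors themselves, and in tumors they are part of the exchange between cancer cells and infiltrating leukocytes.

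Levels are given as FPKM, fragments scaled to the length of the gene and to the mapped fragments of the library. A gene entered a comparison when it reached 1 FPKM in at least 1 of the 2 libraries, and it was called higher or lower when FPKM with 1 added differed by 1.3-fold or more. This log2(FPKM + 1) change understates the change of weakly expressed genes. The reads behind each value were recovered from the FPKM steps, and the ratio of reads per library total is given with its exact 95% counting interval, which covers counting error only. There was no replicate library in any condition, so no test of treatment was possible, and the differences below are between single libraries. The background for each count is the percentage of all entered genes that met the same rule.

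The library totals recovered from the FPKM values lay between 15662035 and 17889466 reads. They are the totals that FPKM was scaled to, and not necessarily counts of all reads sequenced. Of the targeted transcripts, KDM1A (LSD1) was at 26.0 FPKM without Dox and 6.29 FPKM with Dox in the shLSD1 line, a ratio of 0.242 (0.221 to 0.265). EHMT2 (G9a) was at 7.85 FPKM without Dox and 4.76 FPKM with Dox in the shG9a line, a ratio of 0.607 (0.547 to 0.673), so more of its transcript remained. KDM1A was called higher in the induced shG9a line, at 26.4 FPKM without Dox and 35.8 FPKM with Dox. EHMT2 was also called lower with the combination, and neither transcript was called with SP2509 or UNC0642 alone. In every library 8 or 9 of 9 squamous epithelial markers reached 1 FPKM. Of 8 immune markers, those in the tables summed to 0.971 to 10.4 FPKM, the leukocyte marker PTPRC had 0 to 6 reads, and CSF1R and ITGAM made up most of the sum in 7 of the 8 libraries. CSF1R was at 0.384 FPKM with vehicle, 3.89 FPKM with SP2509 and 7.35 FPKM with the combination. Fibroblast and endothelial markers summed to 6.90 to 19.4 FPKM. In bulk RNA, fewer cells of a kind and less RNA per cell cannot be told apart.

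SP2509 was accompanied by higher transcripts of 8 of the 10 genes and lower transcripts of the other 2, CXCL1 and CXCL2. With UNC0642, 7 were higher and 1, CXCL2, was lower. With both inhibitors, 6 were higher and 3 were lower (CXCL1, CXCL2 and NFKBIA). SP2509 and shLSD1 gave opposite calls for 5 of the 10 genes, as did UNC0642 and shG9a. The share of all genes with opposite calls was not counted, so these counts have no background. With shLSD1 induced, 1 gene (CXCL1) was higher and 4 were lower of the 8 that entered, and with shG9a induced all 8 that entered were lower.

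Over all genes, 21% were called higher and 39.9% lower with SP2509, 18.2% and 16.9% with UNC0642, and 31.4% and 31.7% with the combination. The knockdown backgrounds were 24.8% higher and 12.3% lower for shLSD1, and 32.9% higher and 17.6% lower for shG9a. TNF and IL6 were under 1 FPKM in every control library. They entered the inhibitor comparisons only through the treated libraries, where they had to be higher, and they did not enter the knockdown comparisons. Of the other 8 genes, 6 were higher and 2 lower with SP2509, 5 higher and 1 lower with UNC0642, and 4 higher and 3 lower with the combination. The median log2 change of these 8 was 2.21 with SP2509, 1.76 with UNC0642, 0.46 with the combination, −1.04 with shLSD1 and −3.63 with shG9a. Over all genes at 1 FPKM or more in the control library, it was −0.27, −0.05, −0.13, 0.10 and 0.13 in the same order. The 3 inhibitor comparisons share 1 vehicle library, so they are not independent of each other.

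Genes at 5 FPKM or more in both libraries of a pair had a median log2 change of 0.11 with shLSD1 and 0.14 with shG9a, and of 0.12 between the combination and SP2509. When changes were centred on this median, the share of calls that were higher went from 66.8% to 50.7% for shLSD1 and from 65.2% to 50% for shG9a over all genes, and with upper quartile scaling it was 53.9% and 59.1%. Among the 8 entered members, centring left 1 higher and made 5 lower with shLSD1, and left 8 lower with shG9a.

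**Figure D1:**
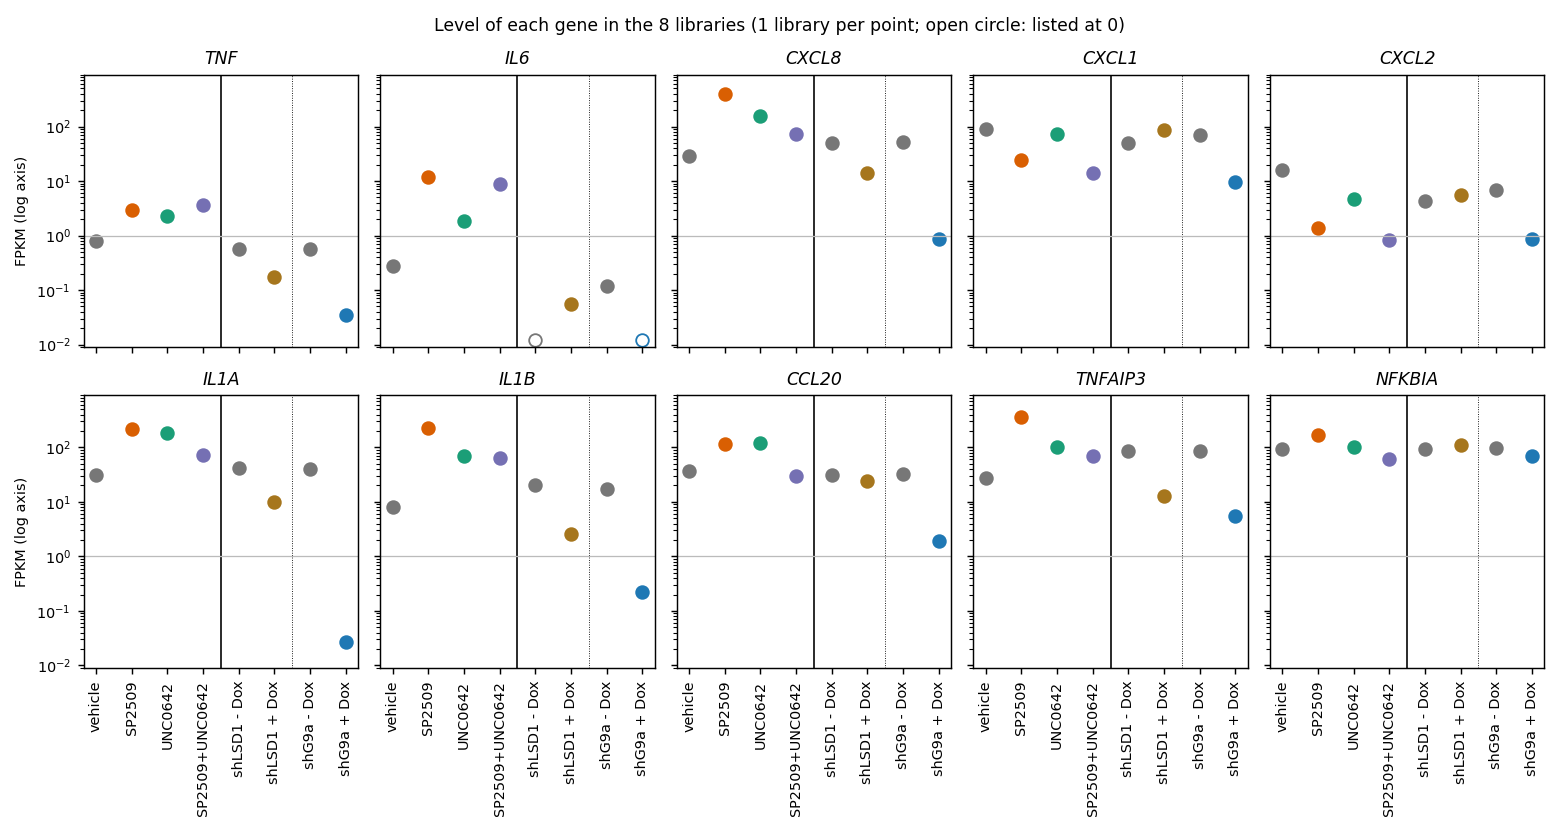
FPKM of each of the 10 genes (log axis) in the 8 libraries, with 1 point per library and controls in gray. A solid line parts the inhibitor and shRNA tables, a dotted line parts the shRNA lines, and a gray line marks 1 FPKM. CXCL8, IL1A, IL1B and TNFAIP3 sat above their control with each inhibitor and below it with each induced shRNA, whereas CXCL1 and CXCL2 sat below vehicle with SP2509.

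The cytokines that act at the head of the cascade differed in how much they were expressed at all. TNF, a trimeric ligand that activates NF-κB through its receptors, was at 0.80 FPKM (21 reads) with vehicle, 2.98 FPKM (89 reads) with SP2509, 2.30 FPKM (69 reads) with UNC0642 and 3.57 FPKM (101 reads) with the combination. All 3 treated libraries lay above vehicle, with ratios of 3.73 (2.30 to 6.32), 2.88 (1.74 to 4.94) and 4.46 (2.77 to 7.52). In the genetic arm TNF was at 0.571 FPKM without Dox and 0.170 FPKM with Dox in the shLSD1 line (17 and 5 reads), and at 0.577 and 0.0345 FPKM in the shG9a line (16 and 1 reads). Both induced libraries lay below their control, and with so few reads the ratios were loosely bounded, at 0.298 (0.0860 to 0.842) and 0.0597 (0.00142 to 0.384).

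IL6, which signals through its receptor and gp130 to STAT3, was close to absent in the controls and showed the largest read ratio of the 10 genes with SP2509. It was at 0.278 FPKM (9 reads) with vehicle, 11.8 FPKM (435 reads) with SP2509, 1.84 FPKM (68 reads) with UNC0642 and 8.96 FPKM (313 reads) with the combination. The ratios to vehicle were 42.5 (22.2 to 93.6), 6.62 (3.29 to 15.1) and 32.3 (16.8 to 71.2). The libraries with SP2509 were thus well above the library with UNC0642 alone. In the shLSD1 line IL6 had 0 reads without Dox and 2 with Dox, and in the shG9a line 4 without Dox and 0 with Dox. With so few reads, no difference in IL6 could be resolved in either shRNA line at this depth.

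IL1A and IL1B, the alarm cytokines of the interleukin 1 family, were made in all controls and moved further than most members. IL1A was at 31.0 FPKM with vehicle, 217 FPKM with SP2509, 184 FPKM with UNC0642 and 71.6 FPKM with the combination. The ratios to vehicle were 7.02 (6.58 to 7.50), 5.94 (5.56 to 6.34) and 2.31 (2.15 to 2.49), so the combination stood nearer to vehicle than either compound alone. IL1A was at 41.8 FPKM without Dox and 9.79 FPKM with Dox in the shLSD1 line, a ratio of 0.234 (0.208 to 0.263). In the shG9a line it was at 39.8 FPKM without Dox and 0.0272 FPKM with Dox, where a single read was left. That control-to-treated ratio was 1463 with a counting interval from 262 to 57820, the largest ratio among the 10 genes in the 5 comparisons, and a loosely bounded one.

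IL1B, which is released after cleavage by caspase 1, was at 8.0 FPKM with vehicle, 224 FPKM with SP2509, 70.5 FPKM with UNC0642 and 65.2 FPKM with the combination. The ratios to vehicle were 28.0 (25.4 to 31.1), 8.81 (7.93 to 9.80) and 8.15 (7.34 to 9.08), and the last 2 libraries stood close together. With the shRNAs, IL1B was at 20.5 FPKM without Dox and 2.53 FPKM with Dox for shLSD1, and at 17.0 FPKM and 0.224 FPKM for shG9a. Both induced libraries were lower, by 8.10-fold (6.78 to 9.74) and 75.8-fold (43.2 to 147), in reads per library total.

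**Figure D2:**
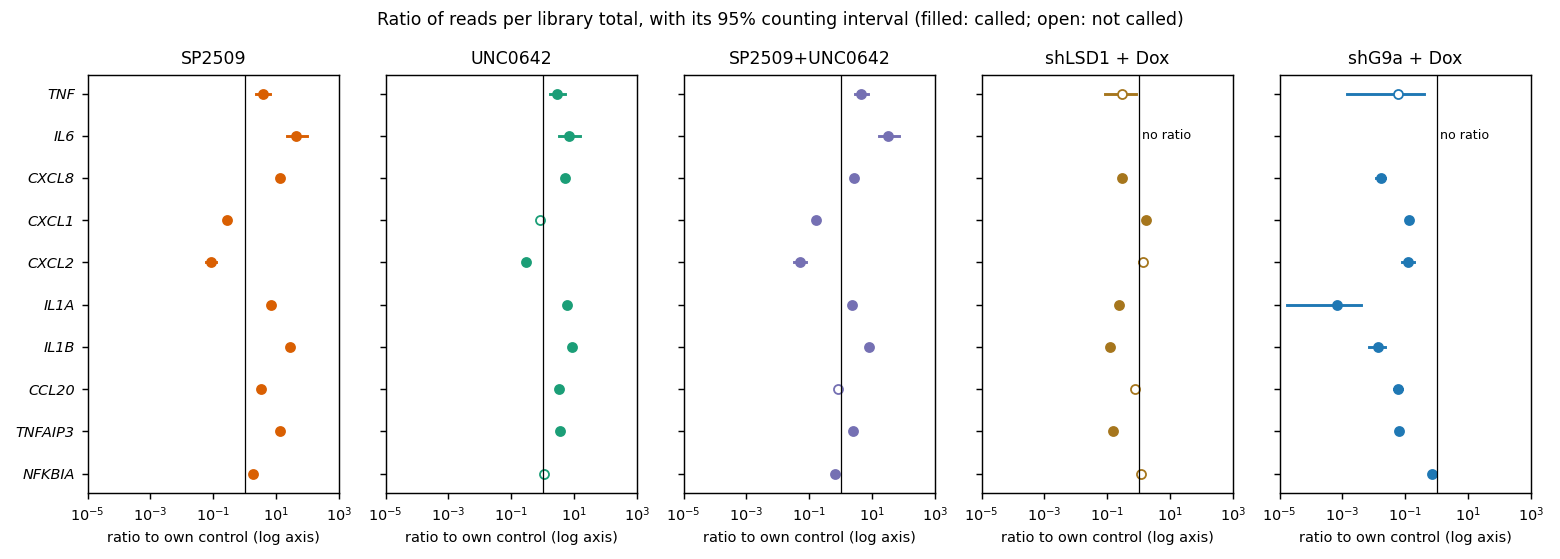
Ratio of reads per library total in each treated library to its own control (log axis), with the exact 95% counting interval as a bar, filled where the gene was called and open where it was not. Intervals are narrow for most genes and wide for TNF and IL6, and for IL1A in shG9a, where 1 read was left, and no ratio is drawn for IL6 in the knockdowns because 0 reads were found in 1 library of each pair.

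The chemokines split in direction. CXCL8, CXCL1 and CXCL2 all attract neutrophils through CXCR1 and CXCR2, and CCL20 attracts CCR6-bearing lymphocytes and dendritic cells. CXCL8 was at 29.1 FPKM with vehicle, 397 FPKM with SP2509, 153 FPKM with UNC0642 and 74.4 FPKM with the combination. All 3 treated libraries were above vehicle, with ratios of 13.6 (12.8 to 14.5), 5.26 (4.93 to 5.62) and 2.55 (2.38 to 2.74). It was at 49.4 FPKM without Dox and 14.2 FPKM with Dox in the shLSD1 line, and at 52.5 and 0.863 FPKM in the shG9a line. The induced libraries were 3.47-fold (3.16 to 3.82) and 60.8-fold (43.4 to 88.1) lower.

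CXCL1 behaved differently from CXCL8, although both lie in the same chemokine cluster. CXCL1 was at 88.9 FPKM with vehicle, 24.3 FPKM with SP2509, 74.2 FPKM with UNC0642 and 14.2 FPKM with the combination. The 2 libraries that received SP2509 were low, with ratios of 0.273 (0.248 to 0.300) and 0.160 (0.141 to 0.180), and the UNC0642 library, at 0.835 (0.781 to 0.893), did not pass the fold threshold. In the shLSD1 line CXCL1 was at 50.7 FPKM without Dox and 86.3 FPKM with Dox, a ratio of 1.70 (1.58 to 1.83), and in the shG9a line at 71.4 and 9.45 FPKM, a ratio of 0.132 (0.114 to 0.153). CXCL1 was thus the only one of the 10 genes called in opposite directions in the knockdowns.

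CXCL2 was at 16.1 FPKM with vehicle, 1.35 FPKM with SP2509, 4.62 FPKM with UNC0642 and 0.829 FPKM with the combination. It was the one member called lower in all 3 treated libraries, with ratios of 0.0838 (0.0578 to 0.118), 0.287 (0.232 to 0.353) and 0.0516 (0.0315 to 0.0800). In the shLSD1 line it was at 4.24 and 5.64 FPKM, which was not called, and in the shG9a line at 6.81 and 0.847 FPKM, a ratio of 0.124 (0.0759 to 0.194). The uninduced lines themselves differed in these chemokines. CXCL1 was 1.41-fold (1.31 to 1.52) and CXCL2 1.61-fold (1.26 to 2.06) higher in shG9a than in shLSD1 without Dox, and they were the only members of the 8 entered called between the uninduced libraries, against 3.04% higher and 4.51% lower over all genes. The CXCL1 ratio of 1.70 with shLSD1 is to be read beside that difference of 1.41-fold between 2 libraries that received neither compound nor Dox.

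CCL20 was at 36.1 FPKM with vehicle, 116 FPKM with SP2509, 120 FPKM with UNC0642 and 30.1 FPKM with the combination. Each single inhibitor was above vehicle, with ratios of 3.22 (2.97 to 3.49) and 3.32 (3.07 to 3.60), whereas the combination, at 0.833 (0.750 to 0.924), was not called. In the shLSD1 line CCL20 was at 30.9 and 24.0 FPKM, which missed the threshold with a log2 change of −0.35, and it passed the threshold when changes were centred on the median. In the shG9a line it was at 33.0 FPKM without Dox and 1.92 FPKM with Dox, 17.2-fold (13.0 to 23.2) lower. The tables used different models of this gene, with an estimated length of 1343 bases for the inhibitors and 1594 bases for the shRNAs, so its levels are not on the same scale in both arms.

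The sequences upstream of the RefSeq start sites of these genes are shown because members with the same NF-κB motif differed in direction. In the RefSeq promoters (GRCh38.p14), the 250 bases before each start site were searched on both strands for the kB consensus and for GGAATTTCC, whose matches can overlap. Of 35116 promoters, 5.39% held either motif, 5.21% the kB consensus and 0.413% GGAATTTCC. Among the 10 genes, all of which had a start site in the table, 7 held a match, and TNF, IL1A and IL1B held none in this window. The 30 bases around the matches follow, 5′ to 3′ on the strand of the gene, with the matched bases in capitals.
CXCL8 (chr4:73740467-73740496, plus strand): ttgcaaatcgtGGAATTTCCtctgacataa
CXCL1 (chr4:73869304-73869333, plus strand): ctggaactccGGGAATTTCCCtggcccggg
CXCL2 (chr4:74099254-74099283, minus strand): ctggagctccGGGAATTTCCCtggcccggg
CXCL3 (chr4:74038749-74038778, minus strand): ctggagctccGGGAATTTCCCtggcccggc
CCL20 (chr2:227813753-227813782, plus strand): tgatcaatggGGAAAACCCCatgtggcaac
IL6 (chr7:22727117-22727146, plus strand): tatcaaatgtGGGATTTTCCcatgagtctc
TNFAIP3 (chr6:137867188-137867217, plus strand): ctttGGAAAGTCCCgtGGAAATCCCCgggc
NFKBIA (chr14:35404811-35404840, minus strand): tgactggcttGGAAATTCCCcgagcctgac

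CXCL1, CXCL2 and their close relative CXCL3 shared the same capitals, and all 3 were called lower with SP2509. CXCL8 also held GGAATTTCC, without the kB consensus, and was higher there. CCL20, IL6 and TNFAIP3 held other forms of the consensus, NFKBIA held the consensus and GGAATTTCC on the opposite strand, and all 4 were higher with SP2509, as were TNF, IL1A and IL1B, which had no match. A match is a description of the letters, and binding was not measured in these libraries. The gene models used for counting can start elsewhere than the RefSeq start sites. The stretches of IL6, CXCL2, CXCL3 and TNFAIP3 lie inside the span of those models, and that of CCL20 does so only in the shRNA arm.

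By position, the contrast between CXCL8 and the other CXC chemokines ran along 1 cluster on chromosome 4. CXCL8 lies at chr4:73740506-73743716, followed by CXCL1 at chr4:73869393-73871242, PPBP, CXCL5, CXCL3 at chr4:74036589-74038807 and CXCL2 at chr4:74097035-74099293. PPBP and CXCL5 were under 1 FPKM in all 8 libraries. CXCL3 was at 5.47 FPKM with vehicle, 0.607 FPKM with SP2509, 0.756 FPKM with UNC0642 and 0.374 FPKM with the combination, and its order followed that of CXCL2. In the shLSD1 line CXCL3 was at 1.09 and 1.78 FPKM, and in the shG9a line at 1.28 and 0.156 FPKM. CXCL1, CXCL2 and CXCL3 are near copies of each other, and how reads that fit several of them were assigned is not given, so their separate levels are uncertain.

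A second cluster, on chromosome 2, holds IL1A at chr2:112773915-112784590 and IL1B at chr2:112829751-112836903 with other genes of the family, of which IL36G and IL36B were chosen after their values were seen. IL1RN, the secreted antagonist of the interleukin 1 receptor, was at 4.16 FPKM with vehicle, 10.8 FPKM with SP2509, 20.7 FPKM with UNC0642 and 37.6 FPKM with the combination. IL36G, an epithelial cytokine of the same family, was at 1.06, 8.14, 12.2 and 23.4 FPKM in the same order. Both were highest with the combination, whereas IL1A in that library stood below both single inhibitors, and IL1B stood below SP2509 and close to UNC0642. IL36B was listed at 0 with vehicle and was at 0.270 FPKM with SP2509, 2.63 FPKM with UNC0642 and 17.2 FPKM with the combination. With shG9a induced, IL1RN was at 2.18 FPKM against 22.1 FPKM and IL36G at 0.0837 FPKM against 3.86 FPKM, lower as IL1A and IL1B were.

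**Figure D3:**
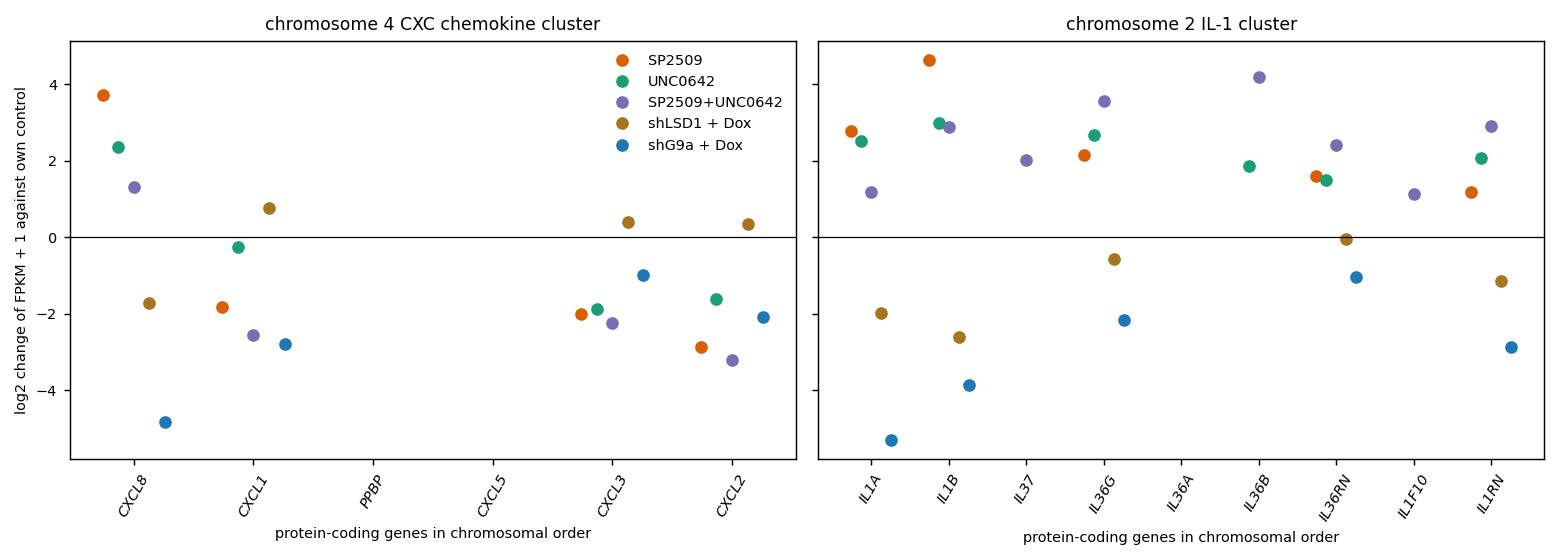
Log2 change of FPKM + 1 against the own control for the protein-coding genes of the chromosome 4 CXC chemokine cluster (left) and the chromosome 2 interleukin 1 cluster (right), in chromosomal order, 1 point per comparison, drawn only where the gene entered. CXCL8 was above 0 with all 3 inhibitor treatments whereas CXCL1, CXCL3 and CXCL2 were below it, and on chromosome 2 the combination gave the highest point for IL36G, IL36B, IL36RN and IL1RN but not for IL1A or IL1B.

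The feedback inhibitors differed in size of response. TNFAIP3 (A20), a ubiquitin-editing enzyme that shuts off signaling to the IκB kinases, was at 27.9 FPKM with vehicle, 365 FPKM with SP2509, 101 FPKM with UNC0642 and 68.8 FPKM with the combination. The ratios to vehicle were 13.1 (12.5 to 13.6), 3.63 (3.47 to 3.81) and 2.46 (2.35 to 2.59), in the same order as those of CXCL8. It was at 86.6 FPKM without Dox and 13.1 FPKM with Dox in the shLSD1 line, and at 85.5 and 5.56 FPKM in the shG9a line. These were 6.61-fold (6.21 to 7.04) and 15.4-fold (14.0 to 16.9) lower.

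NFKBIA, which encodes IκBα and retains NF-κB in the cytoplasm, varied least among the 10 genes. It was at 93.6 FPKM with vehicle, 167 FPKM with SP2509, 103 FPKM with UNC0642 and 61.0 FPKM with the combination, with ratios of 1.78 (1.71 to 1.85), 1.10 (1.05 to 1.15) and 0.652 (0.619 to 0.687). SP2509 alone was therefore above the threshold, UNC0642 was not called, and the combination was below vehicle. It was at 94.4 and 112 FPKM in the shLSD1 line, which was not called, and at 96.1 and 70.1 FPKM in the shG9a line, 1.37-fold (1.31 to 1.44) lower. The 5 log2 changes of NFKBIA lay between −0.61 and 0.83, whereas those of IL1B lay between −3.88 and 4.65.

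Adding UNC0642 to SP2509 was accompanied by lower levels of most of the 10 genes. Compared with SP2509 alone, the combination had 0 members higher and 7 lower of 10, against 41.8% higher and 24.8% lower over all genes. Compared with UNC0642 alone, 2 members (TNF and IL6) were higher and 7 were lower, against 27.7% and 27.1% over all genes. CXCL8 was 5.34-fold (5.13 to 5.56) lower in the combination than with SP2509, TNFAIP3 5.30-fold (5.16 to 5.45) and CCL20 3.86-fold (3.55 to 4.20). TNF, at 1.20 (0.891 to 1.61), was not called between these libraries, nor were IL6 and CXCL2.

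On the log2 scale, the change with the combination was below the sum of the single changes in 9 of the 10 genes, by 4.76 for CXCL8, 4.76 for IL1B, 4.21 for TNFAIP3, 4.12 for IL1A and 3.62 for CCL20. For CXCL1, which was lower than vehicle, the combination was further below it than the sum, by 0.48. CXCL2 was above the sum, by 1.24. Over 14801 genes the median difference was 0.19, and these were not limited to genes called higher with each single inhibitor. How many of all genes lay below the sum was not counted, so the 9 of 10 has no background. The sum counts the vehicle library in each single change. A low value in that library alone would therefore place a gene further below the sum, and this was not tested. Of 7 members called higher with each single inhibitor, 6 were lower in the combination than with the stronger single compound, and TNF was the exception. The same held for 713 of the 1259 genes in the table that were called higher with each single inhibitor, or 56.6%.

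**Figure D4:**
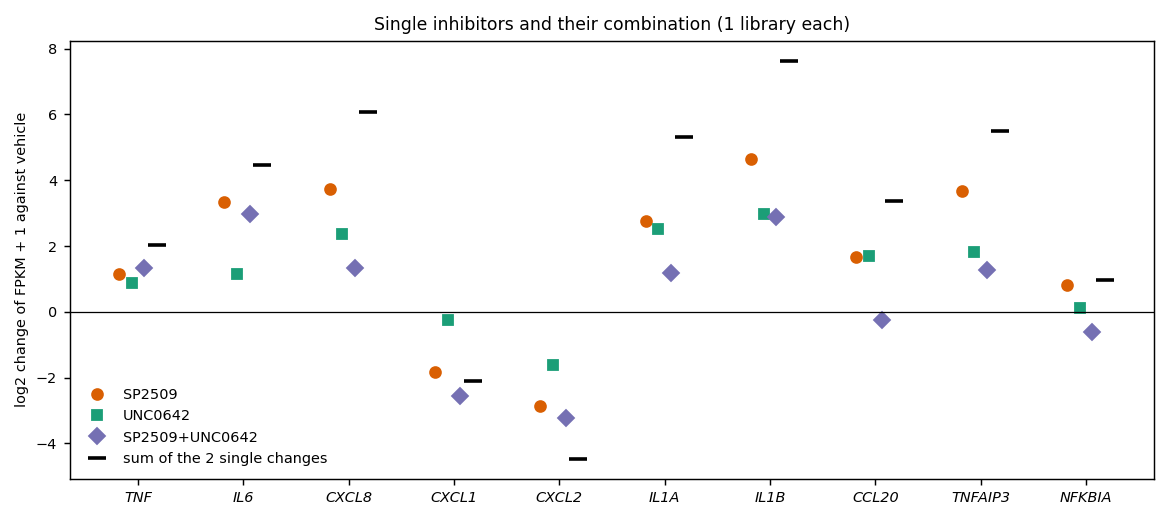
Log2 change of FPKM + 1 against vehicle for SP2509 (circles), UNC0642 (squares), the combination (diamonds) and the sum of the single changes (bars), for each of the 10 genes. The diamond lies below the bar for 9 of 10 genes and below both single inhibitors for CXCL8, IL1A, IL1B, CCL20, TNFAIP3 and NFKBIA, and also for CXCL1 and CXCL2, which were lower than vehicle.

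Other parts of the pathway were described with lists of genes, whose counts can include genes under 1 FPKM in the control that entered only through the treated library, where they had to be higher. Each list count here and below is to be read beside the shares over all genes. These were 21% higher and 39.9% lower with SP2509, 18.2% and 16.9% with UNC0642, and 31.4% and 31.7% with the combination. With shLSD1 they were 24.8% and 12.3%, and with shG9a 32.9% and 17.6%. Of 5 subunits, 3 were higher and 0 lower with SP2509 (NFKB2, RELA and RELB), 0 and 2 with UNC0642, 3 and 2 with the combination, 0 and 0 with shLSD1, and 0 and 4 with shG9a. RELA, the main activating subunit, was at 19.4 FPKM with vehicle and 48.4 FPKM with the combination, and NFKB1, the precursor of the p50 subunit, was at 22.5 and 8.87 FPKM. RELB was at 10.8 FPKM without Dox and 4.07 FPKM with Dox in the shG9a line. Of the 5 other IκB family genes, 4 were higher with SP2509, among them BCL3 at 11.5 FPKM with vehicle and 41.6 FPKM with SP2509, and NFKBID at 1.72 and 8.59 FPKM. None of the 5 was lower with SP2509, and the counts of higher and lower genes were 1 and 0 with UNC0642, 3 and 0 with the combination, 1 and 0 with shLSD1, and 0 and 2 with shG9a.

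The kinases, adaptors and ubiquitin enzymes that lead from receptor to IκB had calls in both directions. Most were not called with UNC0642, shLSD1 or shG9a (19, 16 and 16 of 22). The shares over all genes were 21% higher and 39.9% lower with SP2509, 18.2% and 16.9% with UNC0642, and 31.4% and 31.7% with the combination. They were 24.8% and 12.3% with shLSD1, and 32.9% and 17.6% with shG9a. Of 22, 5 were higher and 7 lower with SP2509, 2 and 1 with UNC0642, 10 and 6 with the combination, 5 and 1 with shLSD1, and 4 and 2 with shG9a. MYD88, the adaptor of the interleukin 1 and toll-like receptors, was at 6.34 FPKM without Dox and 15.7 FPKM with Dox in the shG9a line, in which the cytokines were lower. Among receptors, IL6R was at 7.36 FPKM with vehicle and 32.9 FPKM with the combination, and TNFRSF1A, the broadly expressed TNF receptor, at 24.3 and 13.2 FPKM. Of the receptors that entered, 1 was higher and 2 lower of 5 with SP2509, 2 and 0 of 5 with UNC0642, 5 and 1 of 7 with the combination, and 3 and 1 of 6 in each knockdown.

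Among genes for cytokine processing and antagonism, 2 were higher and 0 lower of 6 with SP2509, 1 and 1 of 6 with UNC0642, 1 and 3 of 6 with the combination, 0 and 1 of 7 with shLSD1, and 1 and 3 of 7 with shG9a. CASP1, which cleaves the IL1B precursor, was at 7.30 FPKM with vehicle, 10.8 FPKM with SP2509 and 2.98 FPKM with the combination. A list of 7 factors that act on the stability of cytokine mRNAs held ZFP36 (tristetraprolin), which promotes the decay of AU-rich mRNAs, and ELAVL1 (HuR), which stabilizes them. ZFP36 was at 10.8 FPKM with vehicle, 51.8 FPKM with SP2509, 33.7 FPKM with UNC0642 and 78.4 FPKM with the combination. ZFP36 was at 57.0 FPKM without Dox and 22.6 FPKM with Dox in the shG9a line. Of the 7 factors, 2 were higher and 3 lower with SP2509, 4 and 0 with UNC0642, 3 and 1 with the combination, 2 and 2 with shLSD1, and 0 and 2 with shG9a. The part of these factors in the levels of the 10 genes was not tested.

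Cytokine genes that are NF-κB targets but not members were called 7 higher and 2 lower of 10 with SP2509, 7 and 2 of 10 with UNC0642, 9 and 2 of 11 with the combination, 4 and 4 of 9 with shLSD1, and 1 and 6 of 8 with shG9a. Of these genes, 6 were at 1 FPKM or more with vehicle, of which 4 were higher and 2 lower with SP2509, 3 and 2 with UNC0642, and 4 and 2 with the combination. IL11, a cytokine of the IL6 family, was at 0.0478 FPKM (2 reads) with vehicle and 24.1 FPKM (1085 reads) with the combination, and at 0.168 and 0.293 FPKM with the single inhibitors. CSF2, the granulocyte and macrophage growth factor, was listed at 0 with vehicle, at 6.28 FPKM with SP2509, 3.55 FPKM with UNC0642 and 21.5 FPKM with the combination. These genes, like IL36G and IL1RN, were highest with both inhibitors, unlike CXCL8, IL1A and TNFAIP3. CSF1, the growth factor for the CSF1R receptor, was at 14.8 FPKM with vehicle and 1.98 FPKM with SP2509, lower as CXCL1 and CXCL2 were.

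Other NF-κB targets were called 9 higher and 1 lower of 12 with SP2509, 6 and 1 of 13 with UNC0642, 8 and 1 of 13 with the combination, 3 and 4 of 12 with shLSD1, and 0 and 8 of 12 with shG9a. PTGS2 (cyclooxygenase), the inducible enzyme of prostaglandin synthesis, was at 11.3 FPKM with vehicle and 127 FPKM with SP2509, and in the shG9a line at 22.2 FPKM without Dox and 2.03 FPKM with Dox. IER3, an early response gene linked to cell survival, was at 48.3 FPKM with vehicle and 270 FPKM with UNC0642, and in the shG9a line at 192 and 31.0 FPKM.

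**Figure D5:**
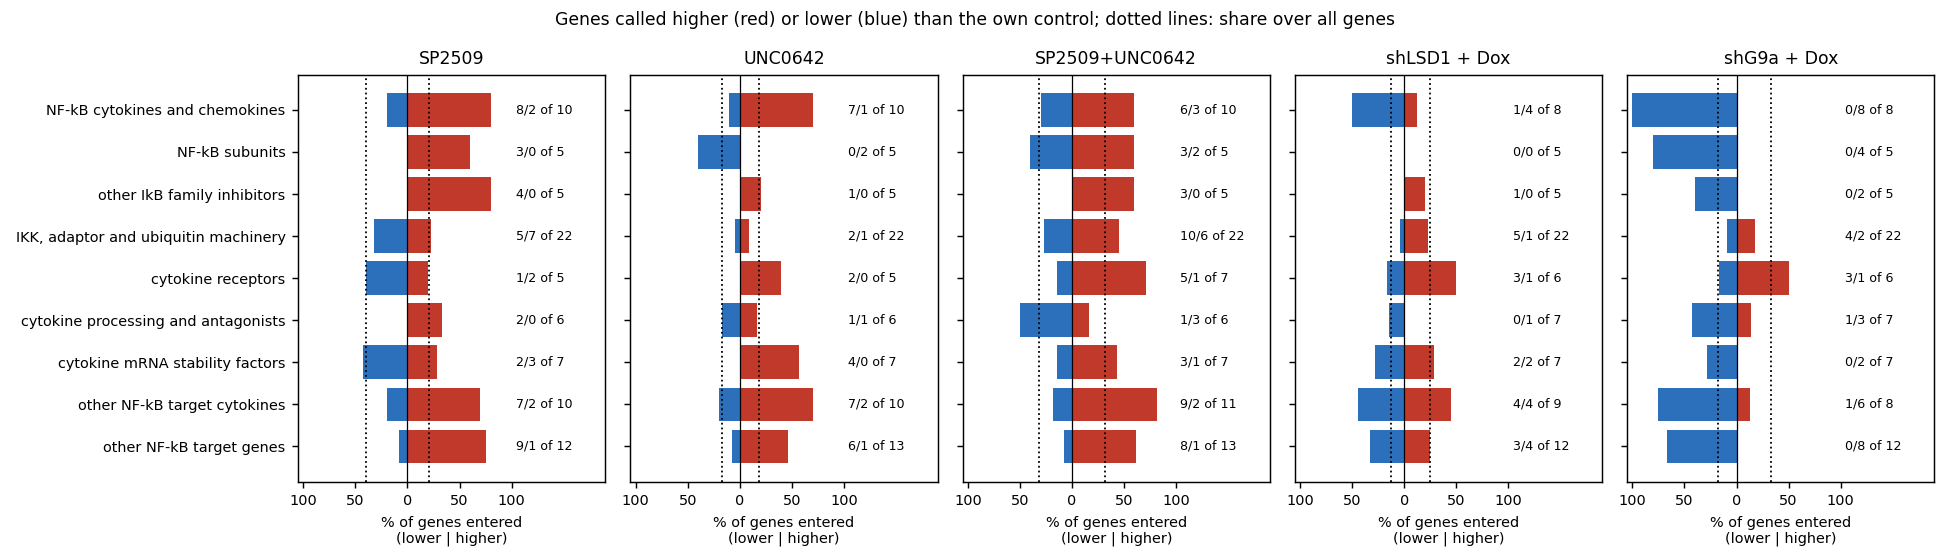
Percentage of the entered genes of each list called higher (right, red) or lower (left, blue) than the own control in each of the 5 comparisons, with the counts beside each bar as higher/lower of entered and dotted lines at the percentages over all genes. The 10 genes and the other NF-κB targets have more calls to the right with the inhibitors and to the left with shG9a. The bars can include genes under 1 FPKM in the control, which entered only through the treated library, where they had to be higher. Of the 8 members at 1 FPKM or more with vehicle, 6 were higher and 2 lower with SP2509. The counts were 5 and 1 with UNC0642, and 4 and 3 with the combination. The list of kinases and adaptors has calls on both sides, and most of its genes were not called with UNC0642 or either shRNA.

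The genes whose pattern over the 5 log2 changes was closest to that of a member were found among 11376 genes that entered all 5 comparisons, by Euclidean distance. For CXCL8 they were IL1A (distance 1.11), TNFAIP3 (1.54) and F3 (2.09), the gene of tissue factor. For TNFAIP3 they were KRT17 (0.779), a keratin of stressed squamous epithelium, PTGS2 (1.12) and IFFO2 (1.26). For IL1B they were DUSP5 (1.61), FOSL1 (1.64) and CYR61 (1.81), and for CXCL2 they were AKR1C2 (1.13), SLC16A5 (1.32) and WNT5A (1.33). The nearest gene to CXCL8 was therefore another member, whereas none of the 3 genes nearest to CXCL2 was. The 3 inhibitor comparisons share a control, so these 5 values are not independent.

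KRT17 was also the most abundant squamous marker in 6 of the 8 libraries and moved with TNFAIP3. It was at 324 FPKM with vehicle, 3716 FPKM with SP2509, 806 FPKM with UNC0642 and 594 FPKM with the combination. In the shLSD1 line it was at 1737 FPKM without Dox and 265 FPKM with Dox, and in the shG9a line at 1596 and 158 FPKM. The 9 squamous markers together summed to 1084, 4874, 1454 and 1078 FPKM in the inhibitor arm, to 2187 and 600 FPKM in the shLSD1 line and to 2021 and 733 FPKM in the shG9a line. The sums do not stand for every marker, and the counts that follow are to be read beside the shares over all genes given above. Of the markers that entered, 6 were higher and 1 lower of 9 with SP2509, and 4 and 3 of 9 with UNC0642. The counts were 4 and 4 of 9 with the combination, 1 and 2 of 8 with shLSD1, and 4 and 2 of 9 with shG9a. With shG9a induced, KRT14, KRT5, KRT6A and SOX2 were called higher although the sum was lower. The part of the squamous markers in the levels of the 10 genes was not tested.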

How the data were processed

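RNA from Kyse510 cells was sequenced as paired ends on an Illumina platform per the labels. The authors mapped filtered reads to GRCh38 and deposited FPKM values in 2 tables, for the inhibitors and the shRNA lines. The gene models of these tables differ in part, and levels were compared only within a table. The aligner, counter and use of strand are not given in the sources used here. Reads were recovered from the FPKM steps, using genes with 1 exon for the library totals, and summed to 99.54% to 99.71% of those totals; 50 and 51 genes had no whole reads. Log2 changes used a pseudocount of 1, a minimum of 1 FPKM in 1 of the 2 libraries and a 1.3-fold threshold. With 1 library per condition no test across libraries was made. Counting intervals are exact (Clopper-Pearson). Named genes were the 10 members, KDM1A, EHMT2, CXCL3, up to 2 genes per list and direction with the largest called change, and the 3 nearest genes of 4 members, and neighbours of members on the chromosome were added. The members and the lists were chosen with earlier results of these data known. Alternatives were pseudocounts of 0.1 and 0.01, no minimum, a minimum of 5 FPKM, a threshold of 2, centring on the median, upper quartile scaling, a binomial p under 0.05 on the reads, and the mean of both uninduced lines as control. The recovery and the calls were tested on simulated data. Analyses used Python 3.11.15, numpy 2.4.6, scipy 1.17.1 and pandas 2.3.3, and GENCODE release 44 gave reference gene lengths. Promoter sequences are from RefSeq (GRCh38.p14).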

Additional observations from a re-analysis of the deposited data

Results flagged for a closer look

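Inhibitor and shRNA against the same enzyme gave opposite calls for several genes. How many of all genes did so was not counted. The SP2509 change minus the shLSD1 change, on the log2 scale, was 5.45 for CXCL8 (3.72 and −1.73), 4.76 for IL1A (2.77 and −1.99), 7.25 for IL1B (4.65 and −2.60) and 6.30 for TNFAIP3 (3.66 and −2.64), and it was −2.59 for CXCL1 (−1.83 and 0.76). The UNC0642 change minus the shG9a change was 7.20 for CXCL8 (2.36 and −4.84), 7.84 for IL1A (2.53 and −5.31), 6.87 for IL1B (2.99 and −3.88), 5.25 for CCL20 (1.71 and −3.54) and 5.55 for TNFAIP3 (1.82 and −3.72). CXCL1 also differed between the knockdowns, with a change of 0.76 for shLSD1 and −2.79 for shG9a, a difference of 3.55. Each was picked out because the single treated library moved one way in one comparison and the other way in the other. None of these differences was tested, since each condition had 1 library. The inhibitor and shRNA arms come from separate tables, whose gene models differ in part.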

How the results depend on the processing

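No paired analysis was possible because each condition had 1 library. Of 84 counts of members called higher or lower under the alternatives, 81 stayed within 1.5 times the reported count, and no member's called direction turned. The sizes of single log2 changes held less well, with 44 marked as moved and 176 as the same. These marks do not follow the size of the shift, so a change marked as the same is not a stable size. IL1A with shG9a was −5.31 as reported and −10.06 with a pseudocount of 0.01, and was marked as the same. NFKBIA with SP2509 was 0.83 as reported and 0.92 when centred on the median, and was marked as moved. IL6 with SP2509 was 3.33 as reported and 5.36 with a pseudocount of 0.01. CXCL1 with shLSD1 was 0.76 as reported and 0.49 against the mean of both uninduced lines. The count of members higher with shLSD1 was 1 as reported, 2 with a pseudocount of 0.1, 2 with a pseudocount of 0.01 and 0 with a threshold of 2, since CXCL1 stood under 2-fold and CXCL2 just under 1.3-fold with a pseudocount of 1. Over all genes, a threshold of 2 took the calls from 3219 higher and 1599 lower to 436 and 424 for shLSD1, from 4305 and 2298 to 671 and 788 for shG9a, from 2807 and 5318 to 1101 and 1736 for SP2509, from 2410 and 2242 to 634 and 413 for UNC0642, and from 4370 and 4413 to 1811 and 1331 for the combination. Depth limited TNF and IL6, which had 21 reads or fewer in each control, and IL1A with shG9a induced, which had 1 read. The intervals cover counting error only.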
